A study of Homo sapiens with 2 samples.

Results

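Genes of DNA replication and of the passage from G1 into S phase were compared between radiation-adapted MHH-ES-1 cells and wild-type MHH-ES-1 cells. The set held 41 genes, chosen by name, out of 20046 genes named on the platform, and 57 of its 47323 probes carried a member's symbol. MHH-ES-1 is an established human Ewing sarcoma cell line. Total RNA of each line was hybridised to 1 Illumina bead array, so each group was 1 sample. The short label of the radiation-adapted sample carries a dose of 4 Gy, and the labels do not say how the dose was given, when RNA was taken after it, or whether the adapted line is a clone. With 1 array per group there was no replicate of either line and no test was possible, so every value describes these 2 RNA samples.

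Cells copy their genome once per division through a fixed series of steps. The origin recognition complex (ORC), CDC6 and CDT1 load the MCM2-7 helicase onto origins in G1, and CDC45 and the GINS complex join it in S phase to form the active helicase. DNA polymerase alpha-primase then lays primers, replication factor C (RFC) loads the sliding clamp PCNA, polymerases epsilon and delta extend the strands, and FEN1 and LIG1 finish the lagging strand. Many of these genes are transcribed in late G1 under E2F transcription factors, which the retinoblastoma protein holds back, and dividing tumour cells are known to express them at high levels.

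The signal used below is the background-corrected, quantile-normalised intensity, which includes an offset of 16, and a log2 ratio is radiation-adapted minus wild type. Probes with a detection p-value under 0.01 were called detected, and each gene took its detected probe with the highest mean signal. The radiation-adapted array detected 17718 probes and the wild-type array 16220, with median unprocessed signals of 142.4 and 140.3. Different probes of 1 gene, over 2269 genes measured more than once, had an SD of 0.45 in the log2 ratio. This was the only spread that could be measured and leaves out differences between cultures. Lying beyond it was common. Of all 11352 detected genes, 3115 had a log2 ratio more than this SD above 0 and 2941 more than this SD below 0. Of the 39 detected members, 20 and 5 did. Of the Ewing sarcoma markers looked up, 9 were on the platform, and 7 were measured on both arrays, among them CD99, NKX2-2 and FLI1; CCK was not well above background in radiation-adapted cells. Endothelial markers were not detected (0 of 5). Leukocyte markers were detected for 2 of 5 genes, both in radiation-adapted cells only. Their summed signals were 128.5 in radiation-adapted cells and 68.5, not well above background, in wild-type cells. Of 6 epithelial markers KRT8 alone was detected, at 180.5 in wild-type cells, and was not well above background in radiation-adapted cells, at 35.3. Of 6 fibroblast markers 5 were detected: COL3A1 on both arrays, COL1A2 in radiation-adapted cells only, and DCN, LUM and FAP in wild-type cells only. Their summed signals, which include those values not well above background, were 164.3 in radiation-adapted and 947.1 in wild-type cells. The part of these cell type markers in the results below was not tested.

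Of the 41 members, 37 were measured on both arrays. GINS1 and GINS4 were detected on the radiation-adapted array only, and CDC6, which loads the helicase, and CCNE2, which encodes cyclin E2, were not well above background on either array. The 39 detected members had a median log2 ratio of 0.48, against -0.01 over all 11352 detected genes. The ratio was above 0 for 29 members (74.4%) and for 49.3% of all detected genes.

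The shift was small and differed by role. Role medians were lowest for primase and polymerases (-0.19, 7 genes) and for clamp and clamp loading (-0.17, 6 genes). The highest, 0.94 for lagging-strand maturation, was over 2 genes. By a rule of at least 2-fold, 4 members (10.3%) were higher in radiation-adapted cells, while 12.4% of all detected genes were, so this share lay near the background. The 4 were ORC6, LIG1, MCM2 and MCM4, of which ORC6 and MCM4 fell short of 2-fold at their dimmer probes. PRIM2 was the 1 member at least 2-fold lower (2.56%), where 10.3% of all detected genes were. By a rule of at least 1.5-fold, 16 members (41.0%) were higher against 22.9% of all detected genes, and 3 were lower against 21.1%. The split of all genes depended on scaling, with 16.5% at least 2-fold higher and 8.13% lower after median scaling, and 18.3% and 7.22% with no scaling between arrays. These settings moved the median of all genes to 0.16 and 0.23, and the member median then exceeded it by 0.35 under both, compared with 0.49 in the main values. Genes of G2 and mitosis gave values beside these: all 20 marker genes were measured, 14 lay above 0 and 6 below it. Their median was 0.21. MKI67 (4.21-fold) and CENPF (4.06-fold) were the 2 of these 20 past 2-fold, where 12.4% of all detected genes were at least 2-fold higher. By the 1.5-fold rule 4 of the 20 were higher and 2 lower, PLK1 (1.96-fold lower) and AURKA (1.56-fold lower). In bulk RNA a larger share of cells in S phase and more of each transcript per cell cannot be told apart.

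**Figure D1:**
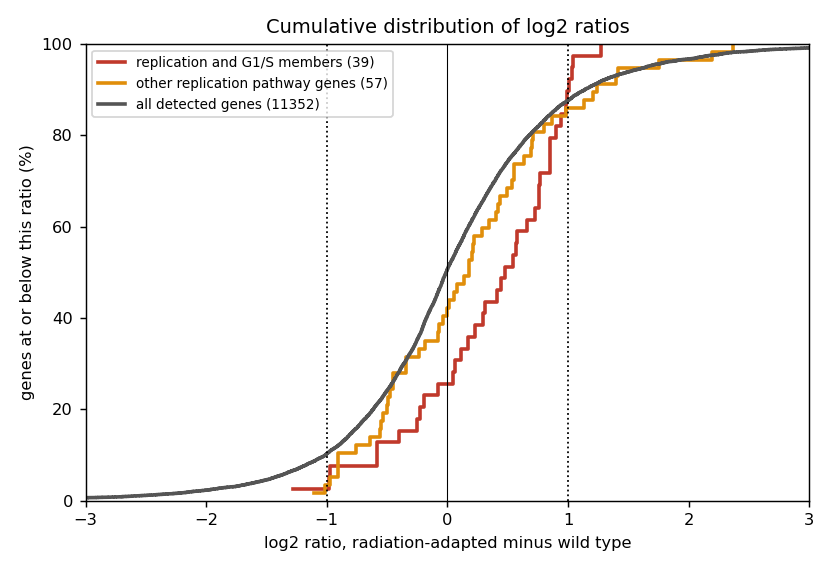
Cumulative share of genes (vertical axis, percent) at or below each log2 ratio of radiation-adapted minus wild-type signal (horizontal axis, drawn from -3 to 3) for the 39 detected members, 57 other replication pathway genes and all 11352 detected genes. Dotted lines mark 2-fold; the curve of the members lies to the right of that of all genes over most of the range and meets it near the upper 2-fold line.

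All 6 subunits of the replicative helicase gave higher signals in the radiation-adapted cells at the brightest probe of each, with MCM7 below 0 when its probes were averaged. The 6 proteins form the ring that unwinds DNA at the fork. MCM2 had a signal of 2380 in radiation-adapted and 1162 in wild-type cells (2.05-fold). MCM4 had 2689 in radiation-adapted and 1334 in wild-type cells (2.02-fold), and 0.74 on the log2 scale at its dimmer probe. MCM3 stood at 8344 in radiation-adapted and 4919 in wild-type cells (1.70-fold), or 0.93 on the log2 scale at its dimmer probe. These 3 subunits lay beyond the SD between probes at every probe. MCM5 had a signal of 1930 in radiation-adapted and 1142 in wild-type cells (1.69-fold). MCM6 differed less, with 3540 in radiation-adapted and 2595 in wild-type cells (1.36-fold). MCM7 had 7467 in radiation-adapted and 6088 in wild-type cells (1.23-fold) at its brightest probe. Another MCM7 probe pointed the other way, at 190.2 in radiation-adapted and 317.1 in wild-type cells, its dimmest probe was detected in radiation-adapted cells only, and the mean over the MCM7 probes had a log2 ratio of -0.13. The direction of MCM7 therefore depended on the probe. MCM6, and MCM7 at its brightest probe, lay within the SD between probes. The opposing MCM7 probe, with a log2 ratio of -0.74, lay beyond it.

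The licensing factors detected were also higher. ORC6, the smallest ORC subunit, had a signal of 23750 in radiation-adapted and 9818 in wild-type cells (2.42-fold). This was the highest fold of the set in the main values; LIG1 stood above ORC6 after median scaling, with no scaling between arrays and with the mean of probes, and GINS4 in the authors' deposited table. The dimmer ORC6 probe had 890.7 in radiation-adapted and 521.2 in wild-type cells, a log2 ratio of 0.77. The unprocessed signal of the bright ORC6 probe on the radiation-adapted array, 23103, stood close to the highest of that array, 27457. GMNN, which encodes geminin, the inhibitor of CDT1, had 858.9 in radiation-adapted and 477.0 in wild-type cells (1.80-fold). ORC1, the largest ORC subunit, had 204.9 in radiation-adapted and 138.1 in wild-type cells (1.48-fold). CDT1, the loading factor that geminin inhibits, had 628.1 in radiation-adapted and 450.8 in wild-type cells (1.39-fold). The 4 ratios ran from 0.48 to 1.27, all beyond the SD between probes, though ORC1 and CDT1 fell short of 1.5-fold. With no background correction CDT1 (0.39) and ORC1 (0.34) lay within that SD.

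The factors that turn the loaded ring into an active helicase were mostly higher. GINS3 had a signal of 539.5 in radiation-adapted and 273.6 in wild-type cells (1.97-fold). MCM10, a scaffold that acts on the CDC45-MCM-GINS helicase, had 957.1 in radiation-adapted and 513.8 in wild-type cells (1.86-fold), and its 2 probes had log2 ratios of 0.90 and 0.97. GINS2 had 2151 in radiation-adapted and 1439 in wild-type cells (1.49-fold). All 3 ratios were positive and larger than the SD between probes. GINS4 was detected in radiation-adapted cells, at 96.1, and not well above background in wild-type cells, at 44.5, and was at least 1.99-fold higher, or at least 1.29-fold with no background correction. GINS1 stood at 45.8 in radiation-adapted cells and 24.4 in wild-type cells, where it was not well above background. No fold can be given for GINS1, since both signals lay below the lowest detected signal of the wild-type array. CDC45, the third component of the active helicase, was nearly level, with 1791 in radiation-adapted and 1730 in wild-type cells (1.04-fold).

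**Figure D2:**
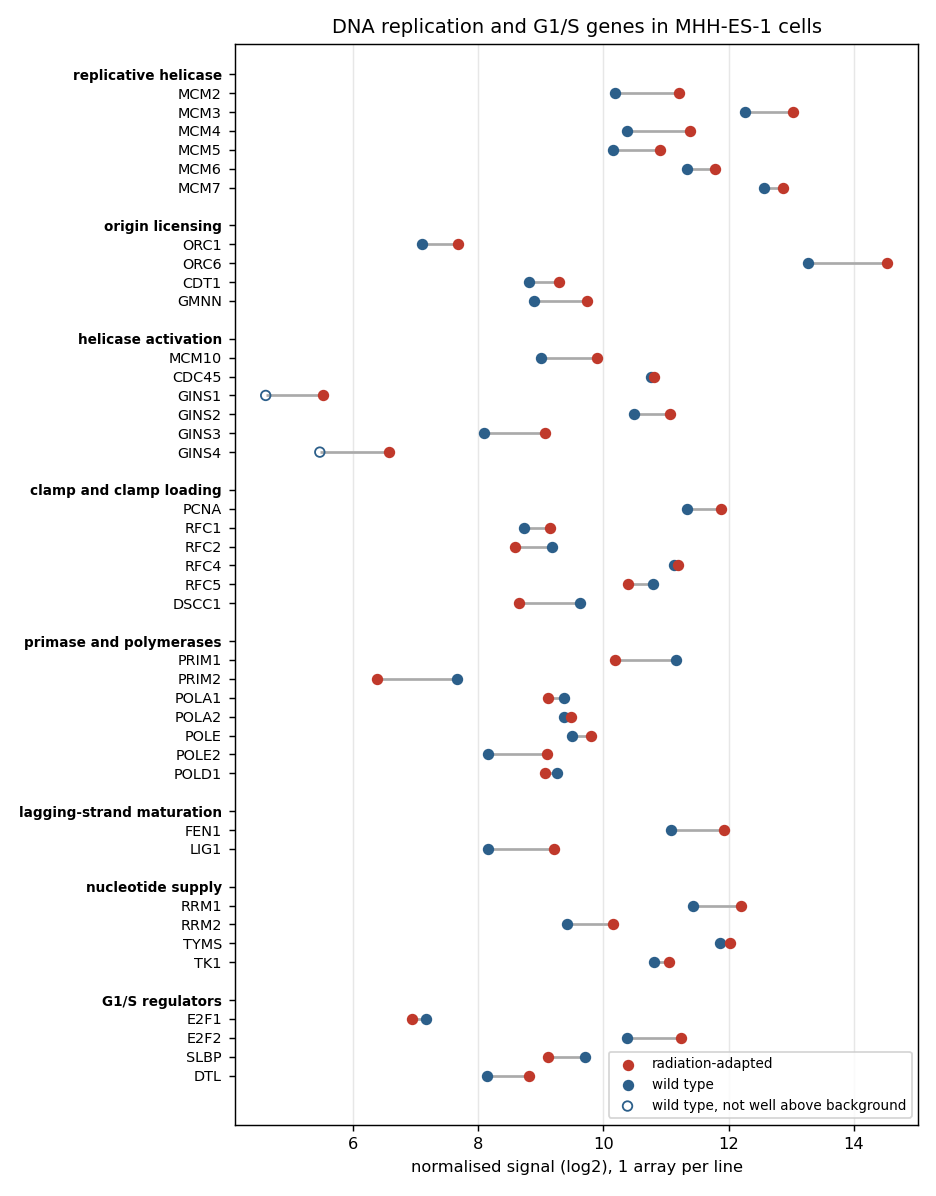
Normalised signal (log2, horizontal axis) of the 39 detected members on the radiation-adapted array (red) and the wild-type array (blue), grouped by role down the page, with 1 array per line; open circles mark wild-type signals not well above background. Red lies to the right of blue for all helicase, licensing, lagging-strand and nucleotide supply genes drawn. In other settings MCM7, with the mean of probes, and TYMS, after median scaling, fall below 0. Red lies to the left of blue for PRIM1, PRIM2, DSCC1, SLBP, RFC2, RFC5, POLA1, E2F1 and POLD1. The sign turned for E2F1 under both other scalings and for POLD1 with no scaling between arrays.

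The clamp and its loaders did not share the direction of the helicase. PCNA had a signal of 3760 in radiation-adapted and 2574 in wild-type cells (1.46-fold). A dimmer PCNA probe had 127.4 in radiation-adapted and 168.0 in wild-type cells, and the mean over probes gave a log2 ratio of 0.07. The direction of PCNA thus differed between its probes. RFC1, the large subunit of the clamp loader, had 567.9 in radiation-adapted and 427.3 in wild-type cells (1.33-fold), and its dimmer probe gave a log2 ratio of -0.28. RFC4 had 2335 in radiation-adapted and 2233 in wild-type cells (1.05-fold), with 0.55 on the log2 scale at its dimmer probe. The probes of RFC1 thus disagreed in sign, and the brighter RFC4 probe lay near 0 (-0.01 after median scaling). RFC2 had 386.4 in radiation-adapted and 577.6 in wild-type cells (1.49-fold lower), with log2 ratios of -0.58 and -0.48 at its 2 probes. RFC5 had 1349 in radiation-adapted and 1780 in wild-type cells (1.32-fold lower). DSCC1, a subunit of an alternative clamp loader that acts in sister chromatid cohesion, had 402.8 in radiation-adapted and 790.9 in wild-type cells (1.96-fold lower). CHTF18, the large subunit of the same alternative loader and no member of the set, had a log2 ratio of 0.80, so 2 parts of 1 complex differed in direction.

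Both primase subunits were lower in the radiation-adapted cells. PRIM1, the catalytic subunit, had a signal of 1163 in radiation-adapted and 2300 in wild-type cells (1.98-fold lower), and its dimmer probe gave a log2 ratio of -0.61. PRIM2, the large regulatory subunit, had 83.9 in radiation-adapted and 203.5 in wild-type cells (2.42-fold lower), and its log2 ratio was -0.68 with no background correction, against -1.28 in the main values. Its ratio was the lowest of the set in the main values, while PRIM1 was lower under both other scalings and with no background correction. The single PRIM2 probe was dim, and the RefSeq table lists a pseudogene, PRIM2BP, on the same chromosome with which shared sequence was not checked. The polymerase subunits that work in complex with primase differed little. POLA1, the catalytic subunit of polymerase alpha, had 558.5 in radiation-adapted and 665.7 in wild-type cells (1.19-fold lower), and a second, dim POLA1 probe was detected in radiation-adapted cells only. POLA2 had 717.5 in radiation-adapted and 662.5 in wild-type cells (1.08-fold). POLE2, the second subunit of the leading-strand polymerase epsilon, had 548.4 in radiation-adapted and 286.2 in wild-type cells (1.92-fold). POLA1, POLE and POLD1, the catalytic polymerase subunits measured, lay within the SD between probes. POLE had 896.6 in radiation-adapted and 723.5 in wild-type cells (1.24-fold). POLD1, of the lagging-strand polymerase delta, had 537.7 in radiation-adapted and 613.2 in wild-type cells (1.14-fold lower), and its log2 ratio was 0.02 with no scaling between arrays.

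Both genes that process Okazaki fragments were higher. LIG1, the ligase that seals them, had a signal of 591.0 in radiation-adapted and 287.3 in wild-type cells (2.06-fold). FEN1, the flap nuclease, had 3886 in radiation-adapted and 2159 in wild-type cells (1.80-fold), and its dimmer probe gave a log2 ratio of 0.68. Among nucleotide supply genes, the 2 ribonucleotide reductase subunits were higher and the thymidylate enzymes were nearly level. RRM1 had 4711 in radiation-adapted and 2770 in wild-type cells (1.70-fold). RRM2 had 1136 in radiation-adapted and 688.0 in wild-type cells (1.65-fold). TK1, the salvage thymidine kinase, had 2117 in radiation-adapted and 1804 in wild-type cells (1.17-fold). TYMS, which makes thymidylate from deoxyuridylate, had 4171 in radiation-adapted and 3713 in wild-type cells (1.12-fold), and its log2 ratio was -0.02 after median scaling. TK1 and TYMS thus lay within the SD between probes.

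The genes grouped as G1/S regulators split in the main values. E2F2 had a signal of 2413 in radiation-adapted and 1337 in wild-type cells (1.80-fold). E2F1 had 123.4 in radiation-adapted and 144.0 in wild-type cells (1.17-fold lower), and its log2 ratio was 0.04 after median scaling and 0.11 with no scaling between arrays. These 2 activator E2F genes did not share a direction in the main values, where E2F1 lay within the SD between probes. DTL, the receptor that hands CDT1 to the CUL4 ubiquitin ligase in S phase, had 448.9 in radiation-adapted and 284.3 in wild-type cells (1.58-fold). SLBP, which binds the stem-loop of histone mRNA, had 558.1 in radiation-adapted and 835.6 in wild-type cells (log2 ratios of -0.58 and -0.64 at its 2 probes).

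Several members lay close to the thresholds. DTL (0.66) was the lowest of the 16 members counted as higher, and GINS2 (0.58) and ORC1 (0.57) stood just outside. DSCC1 (-0.97) was the highest of the 3 counted as lower, and SLBP and RFC2 (-0.58 each) stood just outside. At the 2-fold rule MCM4 (1.01) stood just inside and the bound of GINS4 (0.99) and GINS3 (0.98) just outside. Of 12 members with at least 2 probes measured on both arrays, 9 had the same sign at every such probe, and MCM7, PCNA and RFC1 did not.

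The sequences before the transcription starts show a letter pattern that many members share. The members were chosen by name, and many genes of this kind are known to be transcribed under E2F factors. The pattern is thus not independent of that choice. E2F factors bind sites of the type TTTCCCGC, TTTGGCGC, TTTCGCGC or TTTGCCGC, and these letters were searched on both strands in RefSeq promoter windows (GRCh38.p14) of 250 bases before to 50 after each start. The windows matched 36 of the 41 members (all except CCNE2, DSCC1, GINS4, MCM4 and MCM5). The letters were in a window of 20 of the 36 members (55.6%). Among other genes detected on the arrays the share was 6.76%, and 3.99% of all genes with a window held them. The last 200 bases before the start are given for 7 members that hold the letters there, from the helicase to E2F2 itself, and for ORC6 and PRIM1, a member at least 2-fold higher and a primase subunit that was lower, which hold none. Capitals mark the E2F-type letters, and each line runs 5′ to 3′ along the gene's strand.
MCM3, chr6:52284743-52284942, minus strand: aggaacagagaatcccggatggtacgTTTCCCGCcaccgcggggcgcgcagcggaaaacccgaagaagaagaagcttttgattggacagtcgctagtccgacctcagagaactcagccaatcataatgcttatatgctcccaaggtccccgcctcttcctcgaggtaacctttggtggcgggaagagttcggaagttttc
MCM6, chr2:135876444-135876643, minus strand: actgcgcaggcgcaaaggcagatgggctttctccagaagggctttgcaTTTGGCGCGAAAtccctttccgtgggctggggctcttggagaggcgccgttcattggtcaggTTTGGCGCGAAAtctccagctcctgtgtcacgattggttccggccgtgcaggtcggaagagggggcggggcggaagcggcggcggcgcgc
MCM7, chr7:100101398-100101597, minus strand: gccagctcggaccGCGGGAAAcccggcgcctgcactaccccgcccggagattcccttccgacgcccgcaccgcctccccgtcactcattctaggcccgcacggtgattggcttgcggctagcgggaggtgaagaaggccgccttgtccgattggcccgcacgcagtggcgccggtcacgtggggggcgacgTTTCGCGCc
GMNN, chr6:24775213-24775412, plus strand: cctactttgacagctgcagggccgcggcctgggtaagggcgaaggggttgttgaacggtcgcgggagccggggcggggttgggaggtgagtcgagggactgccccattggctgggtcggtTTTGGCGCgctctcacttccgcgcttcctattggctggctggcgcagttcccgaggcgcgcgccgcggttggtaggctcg
GINS2, chr16:85688955-85689154, minus strand: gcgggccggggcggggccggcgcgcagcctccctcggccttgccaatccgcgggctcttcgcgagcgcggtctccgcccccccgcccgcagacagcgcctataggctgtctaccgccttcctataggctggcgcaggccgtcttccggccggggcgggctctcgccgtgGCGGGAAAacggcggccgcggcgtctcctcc
LIG1, chr19:48170345-48170544, minus strand: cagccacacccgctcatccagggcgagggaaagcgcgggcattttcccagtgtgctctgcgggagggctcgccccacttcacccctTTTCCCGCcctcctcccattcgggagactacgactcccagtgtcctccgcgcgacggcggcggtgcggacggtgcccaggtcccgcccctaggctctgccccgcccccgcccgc
E2F2, chr1:23531234-23531433, minus strand: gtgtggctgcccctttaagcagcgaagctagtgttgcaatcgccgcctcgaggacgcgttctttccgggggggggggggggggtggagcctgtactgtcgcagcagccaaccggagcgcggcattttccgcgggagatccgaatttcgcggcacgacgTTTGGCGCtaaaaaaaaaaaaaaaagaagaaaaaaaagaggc
ORC6, chr16:46689459-46689658, plus strand: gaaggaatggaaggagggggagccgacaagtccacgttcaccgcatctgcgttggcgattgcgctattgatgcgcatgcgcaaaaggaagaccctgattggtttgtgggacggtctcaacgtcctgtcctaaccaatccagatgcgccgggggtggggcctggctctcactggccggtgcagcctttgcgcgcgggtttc
PRIM1, chr12:56752324-56752523, minus strand: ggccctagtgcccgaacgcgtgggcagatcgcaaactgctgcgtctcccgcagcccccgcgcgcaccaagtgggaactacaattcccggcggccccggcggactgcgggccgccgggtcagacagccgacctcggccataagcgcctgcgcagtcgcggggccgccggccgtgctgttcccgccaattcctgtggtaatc
MCM6 holds 4 matches in 2 runs, since in each run the letters of both strands overlap by 4 bases, and MCM7 holds 2, whereas the other members shown with capitals hold 1 each within these 200 bases. In MCM3 a second match starts in the last 4 bases shown, runs past the start and is not in capitals.

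The members with and without these letters both had more ratios above 0 than below. The 19 detected members with the letters in a window had a median log2 ratio of 0.55, and 16 of them lay above 0. The 16 without had a median of 0.15, and 10 lay above 0. Members with the letters ran from POLA1 (-0.25) to LIG1 (1.04), and those without from PRIM2 (-1.28) to ORC6 (1.27), so the ranges overlapped and the members without the letters spread wider. At least 1.5-fold higher were 8 of the 19 and 5 of the 16, where 22.9% of all detected genes were. None of the 19 was at least 1.5-fold lower, while 2 of the 16 were, PRIM1 and PRIM2, where 21.1% of all detected genes were. DSCC1, also counted as lower, was among the members with no window. A link between the letters and the ratios was not tested. Another pattern was searched for comparison, the CHR letters TTTGAA or TTCGAA known from promoters of G2 and mitosis genes. They were in a window of 2 of the 36 members (5.56%), MCM6 and RRM1, and of 15.9% of other detected genes. The CCAAT box was in a window of 22 of the 36 members (61.1%) and of 43.8% of other detected genes. A match of letters does not show that a factor binds.

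**Figure D3:**
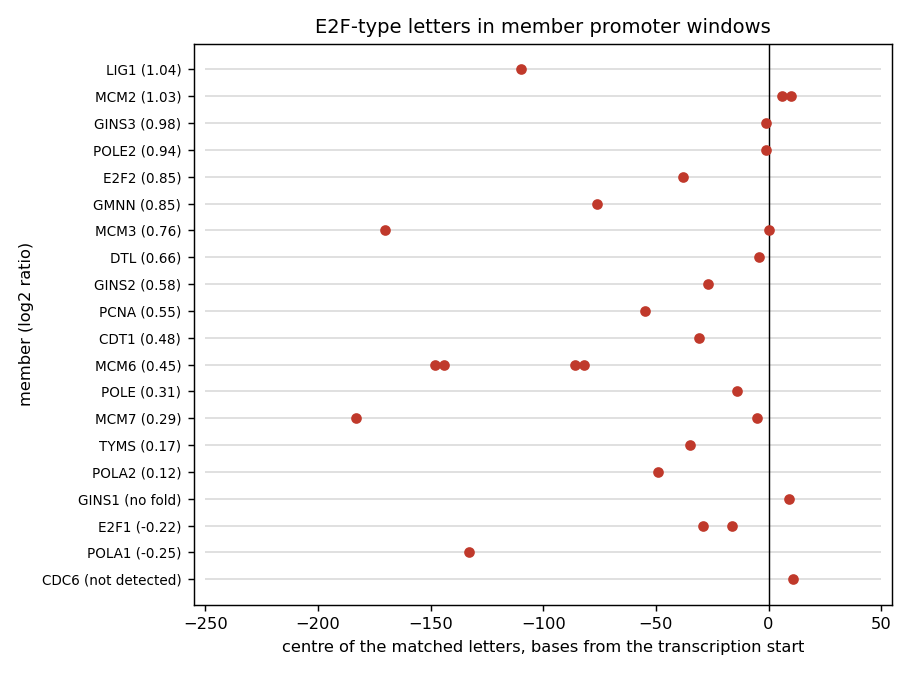
Position of E2F-type letters in the promoter windows of the 20 members that hold them, as the distance in bases of the match's centre from the transcription start (horizontal axis), with members ordered down the page by log2 ratio, given in brackets. Most matches lie within 100 bases of the start, and 16 of the 19 detected members drawn have a ratio above 0.

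Other genes of the pathway, which were not members, were compared from a list of 63 drawn from general knowledge. The list, like the members, was chosen with earlier results of these data known. On the platform were 61, of which 57 were detected. Their median log2 ratio was 0.18, and 33 (57.9%) lay above 0. At least 2-fold higher were 8 (14.0%) and at least 2-fold lower 2 (3.51%), where 12.4% and 10.3% of all detected genes were. The 8 were MCM8, UHRF1, CHAF1A, CCNE1, E2F3, RPA1, POLD3 and, by a bound, NPAT, which was at least 1.36-fold higher with no background correction. CCNE1, which encodes the cyclin that activates CDK2 at S phase entry, had a signal of 165.8 in radiation-adapted and 62.4 in wild-type cells (2.66-fold, and 1.58-fold with no background correction). E2F3, an activator E2F, had 849.4 in radiation-adapted and 323.2 in wild-type cells (2.63-fold). MCM8, a paralogue of the helicase subunits with a role in recombination, had 8599 in radiation-adapted and 1668 in wild-type cells (5.16-fold), with 0.53 on the log2 scale at its dimmer probe and a 2.72-fold difference over the mean of probes. The 2 lower genes were RFC3, a clamp loader subunit with 289.4 in radiation-adapted and 621.6 in wild-type cells, and TFDP1, the DNA-binding partner of E2F proteins with 1088 in radiation-adapted and 2195 in wild-type cells.

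Set out by complex, members and other subunits mostly lay on both sides of 0 within 1 assembly. The log2 ratios of MCM2-7 spanned 0.74, all 6 above 0 at the brightest probe of each. Those of ORC spanned 1.62, from ORC2 at -0.34 to ORC6. Polymerase epsilon spanned 1.85, with POLE4, its histone-fold subunit, at -0.91 and POLE2 at the top. Polymerase delta spanned 2.18, with POLD3 at 1.21 and POLD4 at -0.98. In the clamp loader RFC3 was the lowest at -1.10 and RFC1 the highest at 0.41. Among RPA subunits, which coat single-stranded DNA, RPA1 stood at 1.24, RPA2 at 0.56 and RPA3 at -0.48. In the E2F family E2F3 (1.39), E2F7 (0.87), E2F2 (0.85), E2F4 (0.71), a bound for E2F8 (0.70, and 1.38 with no detection filter) and E2F6 (0.22) lay above 0, and E2F1 (-0.22, with the sign turned by both other scalings) and E2F5 (-0.91) below it. Both DP partner genes, TFDP1 (-1.01) and TFDP2 (-0.64), lay below 0, with 0.23 at a second TFDP2 probe. Each value is a log2 ratio of 1 pair of arrays, and the spans were not tested.

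**Figure D4:**
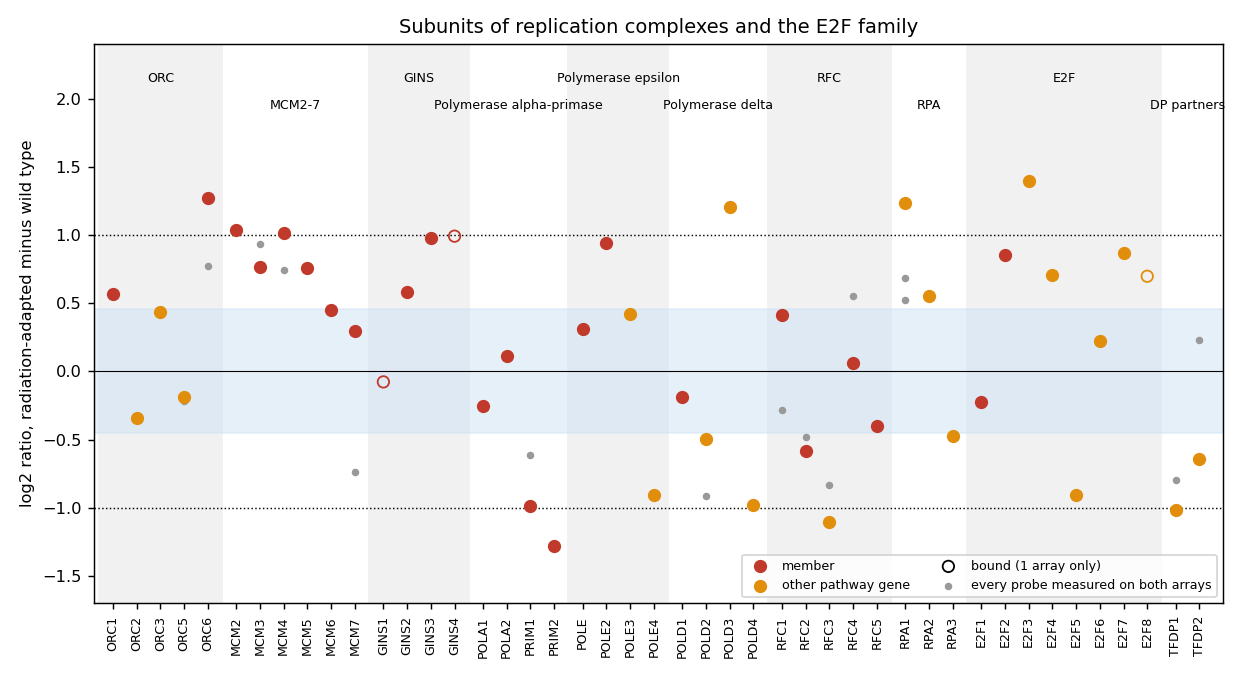
Log2 ratio (radiation-adapted minus wild type, vertical axis) of the subunits of 8 replication complexes, the E2F family and its DP partners. Large points are the gene values for members (red) and other pathway genes (orange), open where the value is a bound, grey dots are every probe measured on both arrays, the blue band spans the probe SD (± 0.45), and dotted lines mark 2-fold. All MCM2-7 gene values lie above 0 at the brightest probes, and PRIM1, PRIM2, RFC3, POLD4, POLE4, E2F5 and TFDP1 lie lowest.

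Runs of chromosomal neighbours had medians away from 0 in these data, so each member was set beside the detected genes around it, 10 on each side (15 in all for TYMS), leaving out other members. The neighbour medians ran from -0.73 around SLBP to 0.74 around GINS4, and their median was 0.04. The member exceeded its neighbour median in 31 of 39 cases (79.5%), where 50.3% of other detected genes did, and the median excess was 0.35. The 4 members at least 2-fold higher had neighbour medians of 0.04 (ORC6), 0.07 (MCM4), 0.12 (MCM2) and 0.24 (LIG1). PRIM2 had 0.20, opposite to its own ratio. The ratios of these 5 were thus not shared by the genes around them. Around GINS4 (0.74), TK1 (0.56), RRM1 (0.42), PRIM1 (-0.53) and SLBP (-0.73) the neighbours lay in the direction of the member. TK1 and SLBP did not go beyond their neighbours, and the ratio of PRIM1 minus its neighbour median was -0.46 at its brighter probe. The dimmer PRIM1 probe (-0.61) lay near that neighbour median. The 4 members on chromosome 16, ORC6, GINS3, GINS2 and CDT1, all lay above 0, with neighbour medians from 0.04 to 0.38.

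**Figure D5:**
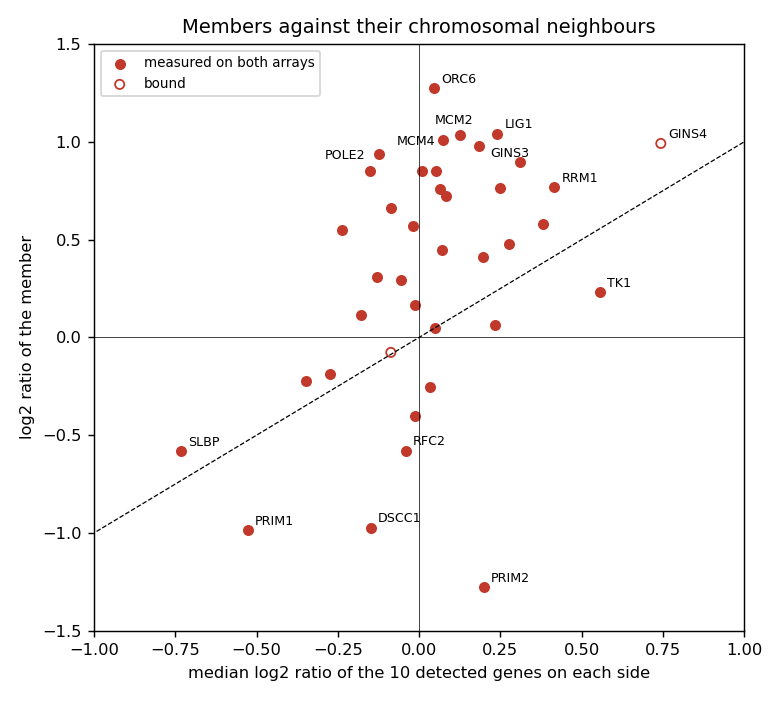
Log2 ratio of each detected member (vertical axis) against the median log2 ratio of the 10 detected genes on each side of it (horizontal axis); open circles are bounds and the dashed line marks equal values. Of the 39 members 31 lie above the line, and ORC6, MCM2, MCM4, LIG1 and PRIM2 have neighbour medians between 0.04 and 0.24.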

How the data were processed

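The deposited unprocessed table gives for each of 47323 probes a mean bead intensity and a detection p-value, per the file headers. The authors also deposited a processed table of linear intensity values, some below 0, whose sorted columns differed by at most 0.2. How these tables were made is not stated in the sources used here. Gene names came from the platform annotation (30113 probes with 1 gene, 8 with several and 17202 unnamed here). Entrez numbers of 30074 probes matched a RefSeq table of GRCh38.p14.

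Intensities were corrected and quantile-normalised with neqc (limma 3.58.1, R 4.3.3, offset 16, negative controls estimated through the detection p-values) and taken to log2. The steps were checked on simulated arrays in which a small share of probes, all well above background, was changed equally up and down. That check did not cover changes in dim genes or a share of differing genes as large as here. Where 1 array did not detect a gene, its value there was raised to that array's lowest detected signal if it lay below it, and the ratio is a bound, printed as "at least"; a bound on the wrong side of 0 gives no fold but entered medians and counts. Genes were counted by size, with no test. Precision is limited by the number of arrays.

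The members and gene lists were chosen with earlier results of these data known. Every member was named, with the other pathway genes past 2-fold. The alternatives changed the background correction, scaling, offset, detection filter, choice of probe, table and size rule. Alternatives without 1 replicate could not be run with 1 array per group.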

Additional observations from a re-analysis of the deposited data

How the results depend on the processing

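Under 9 alternatives the median log2 ratio of the members stayed above 0, from 0.37 (quantile normalisation with no background correction) to 0.58 (no scaling between arrays), and above the median of all genes by 0.35 to 0.51. The number of members at least 2-fold higher, 4 in the main values, was 1 with no background correction, 2 with an offset of 50, 7 after median scaling and 9 with no scaling, and 16 by the 1.5-fold rule; the number at least 2-fold lower, 1 in the main values, was 0 with no background correction or no scaling, 2 after median scaling or in the authors' deposited table, and 3 by the 1.5-fold rule. The count of members at least 1.5-fold higher stayed between 14 and 19, where the share of all detected genes ran from 14.5% to 32.5%. Of the other pathway genes, 4 were at least 2-fold higher with no background correction 11 after median scaling, 12 with no scaling and 15 by the 1.5-fold rule, against 8 in the main values; 0 were lower with no background correction or no scaling, 1 after median scaling, with an offset of 50 or with the mean of probes, and 8 by the 1.5-fold rule, against 2. The cause of these moves was not tested, apart from the 1.5-fold rule, which admits smaller ratios. Of 39 detected members, 33 kept their sign under every alternative that gave a value, and MCM7, GINS1, RFC4, POLD1, TYMS and E2F1 changed sign under at least 1. No paired analysis was possible because each group has 1 array. Bead counts were not used here, and dim members (GINS1, GINS4, PRIM2) are the least certain.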

Other observations

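Other genes that serve replication without being part of the fork machinery spread widely. UHRF1, which brings the maintenance DNA methyltransferase to newly copied DNA, had a signal of 7266 in radiation-adapted and 1585 in wild-type cells (4.58-fold), and its dimmer probe gave a log2 ratio of 1.40. CHAF1A, the large subunit of the chromatin assembly factor that deposits histones behind the fork, had 216.1 in radiation-adapted and 64.2 in wild-type cells (3.37-fold, and 1.85-fold with no background correction). CHAF1B, of the same complex, had a log2 ratio of 0.64, and the histone chaperone genes ASF1B, ASF1A and NASP had 0.50, -0.50 and -0.34. Nucleotide enzymes outside the set lay nearer to or below 0: DUT, which removes dUTP, was 1.88-fold lower (another of its probes at -0.03), mitochondrial TK2 was 1.47-fold lower, and DCK and RRM2B had log2 ratios of 0.14 and -0.04, the RRM2B value lying above 0 under both other scalings.

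Chromosome position went with some of these values. The 4 other pathway genes on chromosome 13, RFC3, TFDP1, CUL4A and RNASEH2B, all lay below 0 (log2 ratios from -1.10 to -0.45), and the medians of their neighbours were -0.96, -0.58, -0.66 and -0.77. RPA1, at 1.24, had a neighbour median of 1.16, and its other probes gave 0.53 and 0.68. MCM8, at 2.37, had a neighbour median of -0.54. The part of chromosome position in the ratios was not tested further. The ubiquitin ligase that acts with DTL had DDB1 at 0.18 and CUL4A at -0.76. DDB1 lay below 0 under both other scalings, but at 0.48 with the mean of probes and at 0.78 at its dimmer probe.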
